A study of Rattus norvegicus with 48 samples.

Results

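The transcripts described here are the 100 probes of a rat bead array whose signals moved together most closely in the kidney and the left ventricle of the same animals after the effects of diet and antibody had been taken out. Log2 signals were quantile-normalised within the 24 arrays of each tissue, and 4383 of the 22523 probes had a detection p below 0.05 on at least 18 arrays of each tissue. The mean of each group was then subtracted, the remaining deviations of the left ventricle and the kidney were matched by animal number, and the members were chosen by this Pearson correlation over 24 rats as the 100 probes with the highest value. Of these 100 members, 82 carry 1 gene symbol, each a different gene, and 18 carry none and are given by probe number.

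The study asked what a single dose of an antibody to marinobufagenin, a steroid of the body's own that blocks the sodium pump, does to gene expression in the heart and kidney of salt-sensitive rats. All 24 animals were male Dahl salt-sensitive rats (SS/JrHsd), labelled as 16 weeks old, and each gave 1 left ventricular and 1 kidney array. The antibody or the IgG1 was injected once. The 6 high-salt antibody rats ate 8% NaCl and received 50 µg/kg of the monoclonal antibody, and the 6 high-salt control rats ate 8% NaCl and received 50 µg/kg of a mouse IgG1. The 6 low-salt antibody rats and the 6 low-salt control rats ate 0.1% NaCl and received the same doses of antibody or of IgG1. Every group therefore carries the salt-sensitive background and an injected immunoglobulin, and no other strain and no uninjected animal is in the comparison. The heart arrays are titled as lateral ventricle and described as left ventricle in the design. On the heart arrays 11 of 16 cardiomyocyte marker probes were detected in all 24 rats, and on the kidney arrays all 13 tubule and glomerulus marker probes were.

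Array brightness differed with diet in the heart. The log2 95th percentile of signal spanned 7.44 to 8.54 in the ventricles of high-salt antibody rats, 7.97 to 9.73 in high-salt controls, 10.02 to 10.70 in low-salt antibody rats and 10.24 to 10.69 in low-salt controls. Detected probes followed, with 3859 to 5509 and 4903 to 7033 on the high-salt antibody and high-salt control ventricles, against 7475 to 8356 and 7504 to 8248 on the low-salt antibody and low-salt control ventricles. The kidney arrays spanned 10.96 to 12.72 with overlapping groups. Arrays of 3 rats were taken, after the data were seen, as standing apart. They were the ventricle and the kidney of high-salt control replicate 1, the ventricle of high-salt antibody replicate 2, which was the dimmest, and the kidney of low-salt control replicate 2. That last kidney detected 9995 probes, the fewest of the kidneys, but its brightness of 11.53 lay inside the kidney range. The brightest kidney, low-salt control replicate 1 at 12.72, was kept. Results are also given without these 3 rats, a choice that these measures alone do not fix.

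Several of the members belong to programmes that many tissues run in parallel. Immediate-early genes such as Zfp36 and Dusp1 are switched on within minutes of a stimulus and switched off again by short-lived mRNA. The circadian clock runs in heart and kidney cells through repressors such as Nr1d1 and Per2, and heat shock factor drives cytosolic chaperones such as Hsp90aa1. Globin mRNA in a solid tissue comes largely from the blood it holds.

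Promoter sequences from RefSeq (build GRCr8, 250 bases before to 50 bases after the start of the gene) were found for 70 of the 82 member genes. The E-box CACGTG, bound by clock activators among other factors, was present in 5 of these 70 promoters (7.14%), beside 6.65% of all 27457 promoters. The D-box TTATGTAA was present in 1 (1.43%, beside 0.881%), and the heat shock element in 1 (1.43%, beside 0.736%). The interferon-stimulated response motif was in 1 (1.43%, beside 3.77%), and TTACGTAA and the glucocorticoid response palindrome were in none (beside 0.127% and 0.00728%). Both strands were searched, and each motif was counted on its own. The shares were thus close to those of all promoters for the E-box, and the other counts were too small to compare. A promoter with a match is shown for the immediate-early, the clock and the chaperone members, with the matched bases in capitals. The windows are chr10:17184603-17184902 on the plus strand for Dusp1, chr9:99496944-99497243 on the minus strand for Per2 and chr5:60638154-60638453 on the plus strand for Dnaja1.
Dusp1: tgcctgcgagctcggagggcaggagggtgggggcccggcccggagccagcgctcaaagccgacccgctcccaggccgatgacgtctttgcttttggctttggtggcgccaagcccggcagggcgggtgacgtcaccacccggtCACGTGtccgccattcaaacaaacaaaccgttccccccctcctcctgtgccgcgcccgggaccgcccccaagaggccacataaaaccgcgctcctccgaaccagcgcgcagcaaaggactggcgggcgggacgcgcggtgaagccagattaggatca
Per2: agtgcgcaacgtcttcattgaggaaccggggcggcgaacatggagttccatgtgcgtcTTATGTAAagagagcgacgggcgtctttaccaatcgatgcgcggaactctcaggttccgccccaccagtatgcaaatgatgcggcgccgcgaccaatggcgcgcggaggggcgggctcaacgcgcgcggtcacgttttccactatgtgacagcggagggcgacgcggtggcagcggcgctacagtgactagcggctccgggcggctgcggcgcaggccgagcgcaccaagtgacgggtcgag
Dnaja1: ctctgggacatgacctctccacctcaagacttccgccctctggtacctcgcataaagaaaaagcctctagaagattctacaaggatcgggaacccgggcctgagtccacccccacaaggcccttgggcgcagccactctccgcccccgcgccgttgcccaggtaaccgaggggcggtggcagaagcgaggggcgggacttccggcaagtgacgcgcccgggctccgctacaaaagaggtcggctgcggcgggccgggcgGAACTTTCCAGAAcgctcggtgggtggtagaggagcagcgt

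The correlations that chose the members ran between 0.497 and 0.785, with a median of 0.551, and they are given as a description. The other 4283 probes that passed the filter had a median of 0.0433. Just inside the limit lay Degs1 (0.4998), Hspa5 (0.4988) and ILMN_1373039 (0.4973), and just outside it Rpl21 (0.4971), Scamp1 (0.4953) and ILMN_1360052 (0.4924), so the members shade into the probes below them without a gap. Spearman's rho of the members had a median of 0.501 and reached down to 0.136. Under median scaling, which shifts each array to 1 common median in place of quantile normalisation, the members' correlations had a median of -0.0488 (-0.4755 to 0.6185). The other probes had -0.2474. Zfp36 was then at 0.474, Hsp90aa1 at 0.214, Sult1a1 at 0.270, Galm at -0.151 and Echs1 at -0.299. Icam2 was at -0.336, Dhrs4 at -0.173, Nr1d1 at 0.6185, RT1-DMa at 0.3595 and Pelo at -0.307. Agreement between the organs depended on the scaling. By the rule's values the correlation was above 0 inside all 4 groups for 38 members, inside 3 groups for 45 and inside 2 or fewer for 17. Its median was 0.581 within the high-salt antibody rats, 0.698 within the high-salt controls, 0.111 within the low-salt antibody rats and 0.627 within the low-salt controls.

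**Figure D1:**
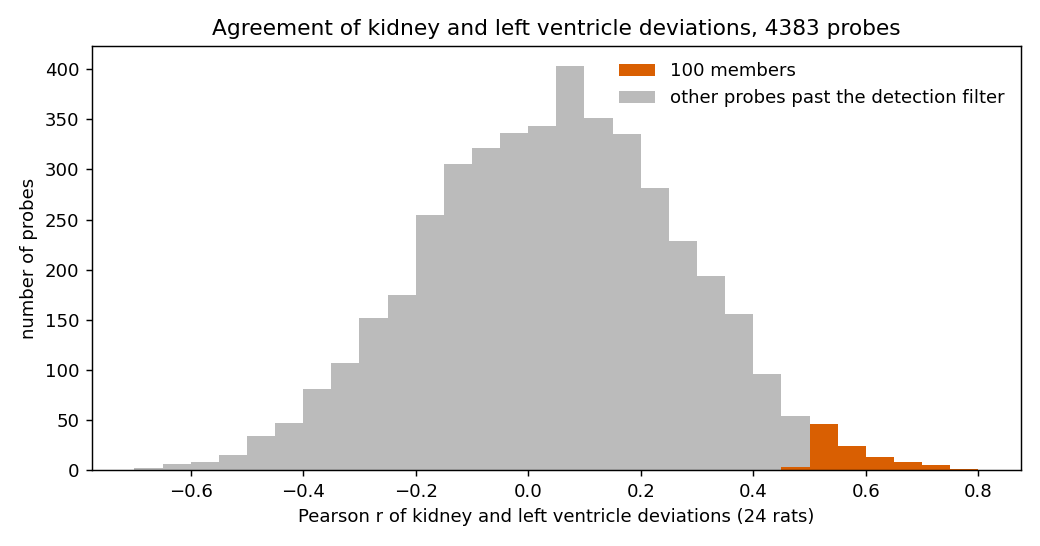
The histogram counts probes (vertical axis) by the Pearson correlation between kidney and left ventricle deviations over 24 rats (horizontal axis), with the 100 members in orange and the other 4283 probes in grey. The members occupy the right edge, between 0.497 and 0.785, and join the grey bars without a gap.

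The members did not all vary together. Within the kidney the median correlation between pairs of members was 0.0023, and within the left ventricle it was 0.0111. Average linkage on the mean of both tissues, cut at a height of 0.5, put 63 members into 12 clusters of 3 or more and left 37 outside them. Clusters and their genes were formed on these same values and are described without a test.

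**Figure D2:**
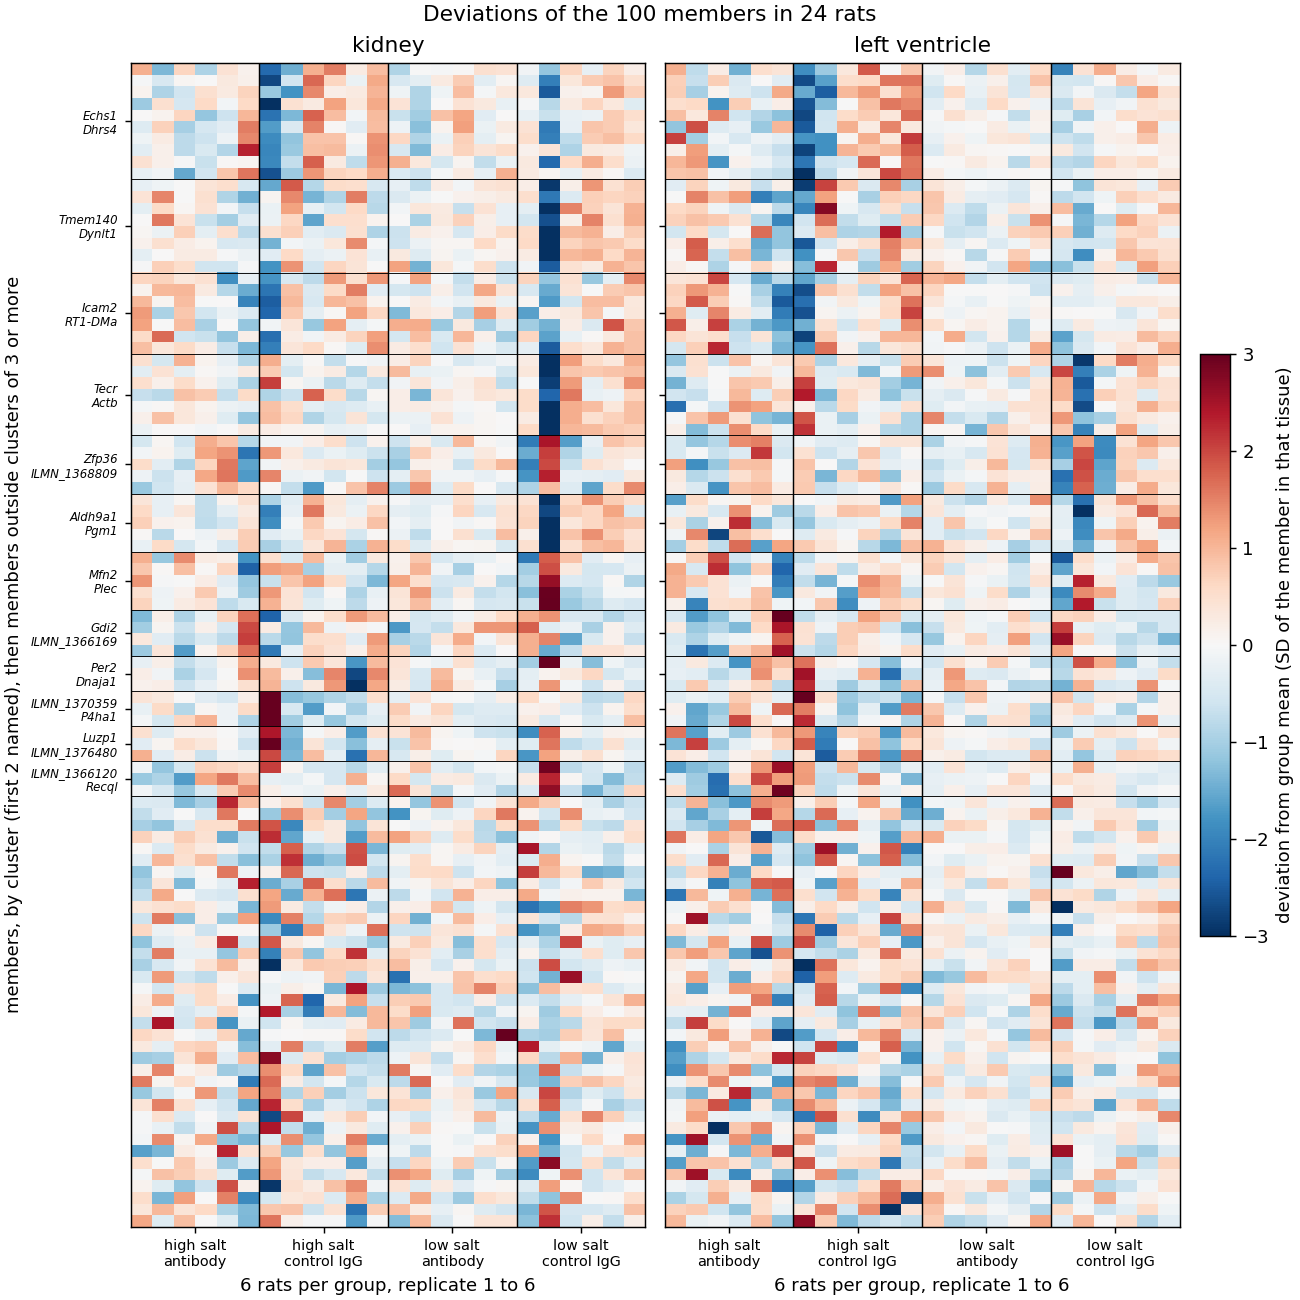
Each row is 1 of the 100 members and each column 1 of 24 rats, in kidney (left) and left ventricle (right), coloured by the deviation from the group mean in SD of that member in that tissue, with clusters of 3 or more divided by lines and the first 2 members of each named. Low-salt control replicate 2 and high-salt control replicate 1 hold the darkest columns, and the low-salt antibody rats the palest.

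Zfp36, Dusp1 and Ccn1 varied together from rat to rat in both organs. Zfp36 encodes tristetraprolin, which speeds the decay of AU-rich mRNA, Dusp1 a phosphatase that switches off MAP kinases, and Ccn1 a secreted matricellular protein. Zfp36 had the highest correlation of all members (0.785), and Dusp1 and Ccn1 had 0.583 and 0.594. Between Zfp36 and Dusp1 the deviations correlated at 0.690 in the kidney and 0.718 in the left ventricle, and between Zfp36 and Ccn1 at 0.693 in the kidney and 0.717 in the left ventricle. Each of these correlations is over the 24 arrays of 1 tissue, so its points share their arrays. ILMN_1368809 and ILMN_1366573, which carry no gene symbol, fell into the same cluster. Of 11 immediate-early probes that passed the filter, 3 were members, and the median correlation over the 11 was 0.292, beside 0.0507 over all that passed the filter. Such counts and medians over lists, here and below, use the correlation that chose the members and are a description. Junb, a subunit of the AP-1 transcription factor, came closest outside the members with 0.384, followed by Ier2 with 0.293, Jun with 0.292, Klf6 with 0.167 and Ccn2 with 0.107.

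A few rats lay farthest out for this cluster. Zfp36 deviated by 1.23 in the kidney and 0.59 in the ventricle of low-salt control replicate 2, and by -1.05 and -0.84 in replicate 1 of the same group. Low-salt control replicate 3 was at -0.84 in the kidney and -0.91 in the ventricle, and high-salt antibody replicates 4 and 5 were at 0.54 and 0.42 in the kidney and at 0.67 and 0.73 in the ventricle. In the high-salt controls Zfp36 spread least in the ventricle and its correlation was -0.314. The correlation of Zfp36 without the 3 rats whose arrays stood apart was 0.837, that of Ccn1 0.525 and that of Dusp1 0.359. Deviations of Dusp1 in the kidney also went with array brightness, at a correlation of -0.672, and those of Zfp36 less so, at -0.340. With brightness removed from the deviations of each tissue by regression, the correlation between the organs was 0.710 for Zfp36, 0.465 for Ccn1 and 0.357 for Dusp1.

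In levels, Zfp36 overlapped across all groups in both organs. Levels and fold changes are given here on the log2 intensity scale after background correction and quantile normalisation (neqc), and the deviations above on the quantile-normalised log2 signal. In the left ventricle Zfp36 ranged over 8.91 to 10.54 in high-salt antibody rats (median 9.40), 9.04 to 9.55 in high-salt controls (9.29), 8.95 to 10.21 in low-salt antibody rats (9.52) and 8.27 to 10.30 in low-salt controls (9.96). Dusp1 by contrast spanned 9.58 to 10.39 in high-salt antibody ventricles (median 10.07) and 9.39 to 10.54 in high-salt control ventricles (10.28), against 11.29 to 11.73 in low-salt antibody ventricles (11.58) and 10.93 to 12.65 in low-salt control ventricles (12.13). The high-salt and low-salt ventricles did not overlap for Dusp1. In the kidney Dusp1 ranged over 11.37 to 13.44 in high-salt antibody rats, 11.89 to 13.20 in high-salt controls, 12.15 to 12.83 in low-salt antibody rats and 11.08 to 13.67 in low-salt controls, with every group overlapping.

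The clock genes Nr1d1 and Per2 were members, and they did not move with each other. Nr1d1 encodes the repressor REV-ERB alpha and Per2 a repressor of the other arm of the clock. Nr1d1 correlated at 0.682 and Per2 at 0.667 between the organs, and without the 3 rats at 0.748 and 0.554. The deviations of Nr1d1 and Per2 correlated at 0.275 in the kidney and -0.354 in the left ventricle. Of 9 clock probes that passed the filter 2 were members, and the median of the 9 was 0.216. Per1 at 0.454 and Cry1 at 0.379 lay below the members. In the kidney Per1 went with Per2 at 0.744 and with Nr1d1 at 0.548, and in the left ventricle at 0.204 and 0.198.

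Nr1d1 was spread over many rats. Within the high-salt antibody rats it correlated at 0.992, with replicate 5 at -0.72 in the kidney and -0.96 in the ventricle and replicate 1 at 0.34 and 0.60. It correlated at 0.687 within the high-salt controls, 0.690 within the low-salt antibody rats and 0.288 within the low-salt controls. High-salt control replicate 5 was low in both organs, at -0.82 in the kidney and -0.62 in the ventricle. The member most opposite to Nr1d1 was Sult1a1, which encodes a phenol sulfotransferase and ranked 3 by correlation (0.745). Sult1a1 and Nr1d1 correlated at -0.828 in the kidney and -0.729 in the left ventricle. Between the organs Sult1a1 correlated at 0.213 within the low-salt controls and at 0.762 to 0.977 within the other groups. In the rat where Nr1d1 was lowest in the ventricle, high-salt antibody replicate 5, Sult1a1 stood at 0.49 in the kidney and 0.56 in the ventricle. Sult1a1 had a correlation of 0.773 without the 3 rats and 0.755 with brightness removed, and Nr1d1 had 0.715 with brightness removed. The deviations of Sult1a1 had correlations with brightness of -0.0420 in the kidney and 0.236 in the left ventricle, where Sult1a1 was detected on 2 of 6 high-salt antibody arrays, 5 of 6 high-salt control arrays and all low-salt arrays.

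Fkbp5, a co-chaperone that is induced by and restrains the glucocorticoid receptor, correlated at 0.562 between the organs and at 0.670 without the 3 rats. Low-salt control replicate 3 was the highest rat in both organs, at 0.79 in the kidney and 0.38 in the ventricle. Fkbp5 and Dusp1 were the 2 members among 10 glucocorticoid-response probes that passed the filter, whose median was 0.181. The deviations of Fkbp5 correlated with those of Dusp1 at -0.237 in the kidney and -0.313 in the left ventricle, below 0 in both organs.

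**Figure D3:**
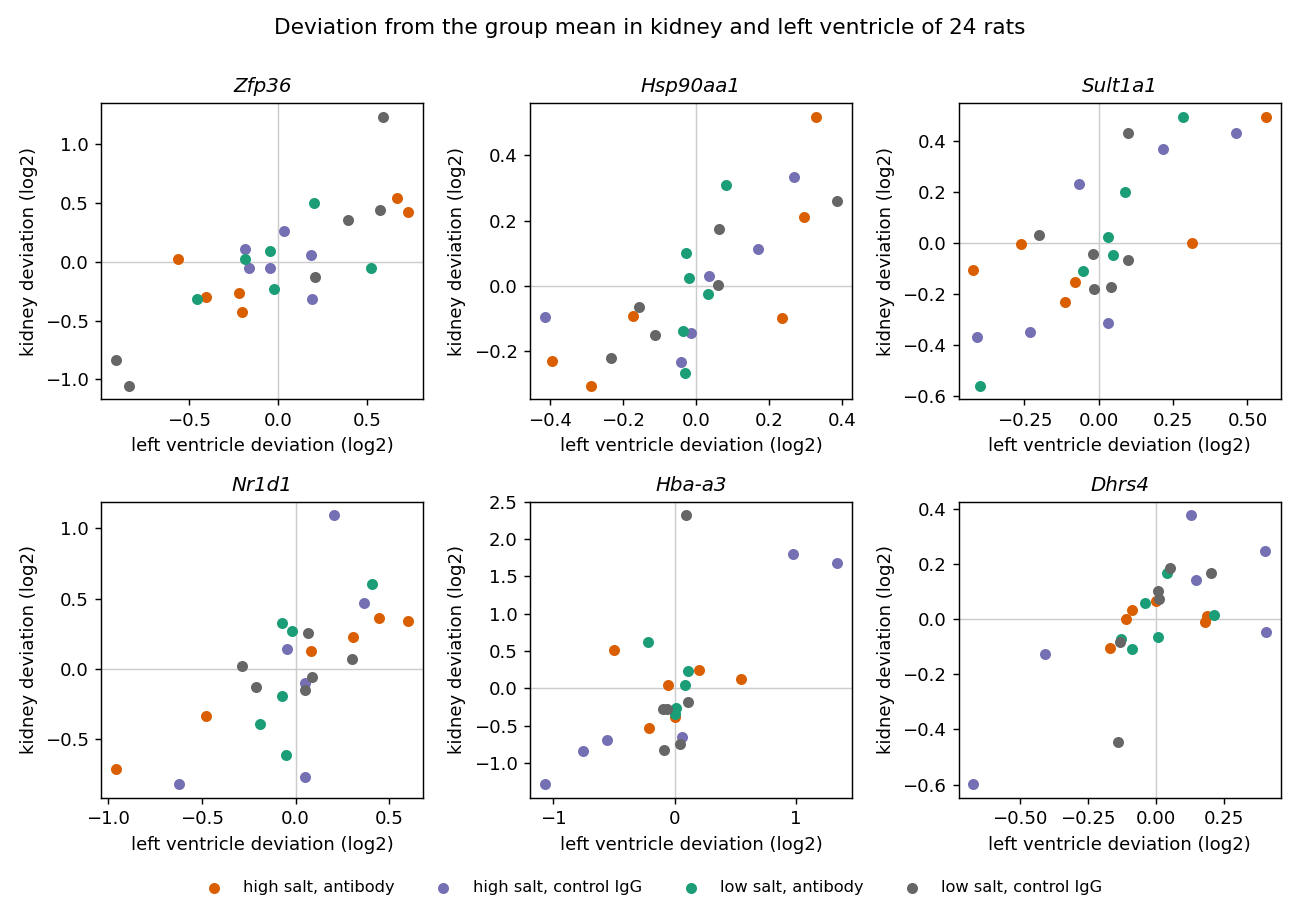
Each panel plots 1 member, each point 1 of 24 rats, with the deviation from the group mean (log2) in the left ventricle on the horizontal axis and in the kidney on the vertical axis, coloured by group. Points for Zfp36, Hsp90aa1, Sult1a1 and Nr1d1 lie along a diagonal, those of Hba-a3 are led by 3 rats with high kidney values, and those of Dhrs4 by high-salt control replicate 1 at the lower left.

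The heat-shock list of chaperone genes held 4 members among the 10 of its probes that passed the filter, with a median of 0.292 over the 10. No other list held more members. The count and the median use the correlation that chose the members and are a description. Hsp90aa1, the inducible cytosolic HSP90, correlated at 0.747, the HSP40 co-chaperones Dnajb1 and Dnaja1 at 0.550 and 0.516, and Hspa5, the endoplasmic reticulum chaperone BiP, at 0.499. Hsp90aa1 agreed in sign between the organs in 20 of 24 rats and correlated above 0 in each of the 4 groups, at 0.812 in high-salt antibody rats, 0.667 in high-salt controls, 0.734 in low-salt antibody rats and 0.917 in low-salt controls. On the high-salt antibody ventricles it was detected on 2 of 6 arrays. Without the 3 rats it stood at 0.806, Dnajb1 at 0.603, Dnaja1 at 0.487 and Hspa5 at 0.384. High-salt control replicate 5 is not among those rats. It supplied 59.7% of the cross-product behind the correlation of Dnaja1 and 39% of that of Hspa5. Spearman's rho was 0.381 for Dnaja1 and 0.375 for Hspa5. Outside the members Hspa4l stood at 0.306, Chordc1 at 0.277, Bag3 at 0.170, Hspb1 at 0.167 and Hspd1 at -0.0423 over all rats.

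The 4 chaperones did not vary as 1 block. Dnajb1 was most like Dnaja1, at 0.566 in the kidney and 0.412 in the left ventricle, while Dnaja1 and Hspa5 clustered with Per2. Per2 and Hspa5 correlated at 0.731 in the kidney and 0.502 in the left ventricle. Hsp90aa1 was most like the unnamed probe ILMN_1362318, at 0.524 in the kidney and 0.604 in the left ventricle. High-salt control replicate 5 was the lowest rat for the Per2 cluster in both organs.

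Alpha-globin mRNA differed widely between rats. Hba-a3 and Hba-a1 correlated at 0.658 and 0.545 between the organs and at 0.938 in the kidney and 0.790 in the left ventricle with each other. The agreement of Hba-a3 between the organs was uneven across groups. It was -0.041 in high-salt antibody rats, 0.953 in high-salt controls, -0.513 in low-salt antibody rats and 0.502 in low-salt controls. Signs agreed between the organs in 14 of 24 rats for Hba-a3 and in 16 for Hba-a1. In the kidney Hba-a1 ranged over 12.08 to 14.01 in high-salt antibody rats (median 13.43), 12.55 to 15.58 in high-salt controls (13.81), 13.34 to 14.33 in low-salt antibody rats (13.69) and 11.69 to 15.48 in low-salt controls (13.002). In the left ventricle it ranged over 12.52 to 13.62 in high-salt antibody rats (13.31), 12.997 to 14.51 in high-salt controls (13.65), 12.86 to 13.31 in low-salt antibody rats (13.14) and 13.25 to 13.72 in low-salt controls (13.37). The groups overlapped, and the spread lay within them. Low-salt control replicate 1 had the highest Hba-a3 deviation in the kidney, 2.32, but only a small one in the ventricle, where high-salt control replicate 2 led with 1.34.

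On the list of red-cell markers the globins agreed between the organs more than the other probes did. Of its 17 probes on the array, 8 were detected in every kidney and 6 in every ventricle, and 4 were detected in no kidney and 5 in no ventricle. Their summed linear intensity in the kidney spanned 12922 to 36067 in high-salt antibody rats, 16416 to 123194 in high-salt controls, 24455 to 48350 in low-salt antibody rats and 11074 to 113023 in low-salt controls. These sums include the globins. Hbb, beta-globin, correlated at 0.441 between the organs and with Hba-a3 at 0.958 in the kidney and 0.875 in the left ventricle. The probes of the list for genes other than globins that passed the filter correlated at -0.0825 to 0.269 between the organs. Among the members, Sult1a1 went with Hba-a3 at 0.441 in the kidney and 0.622 in the left ventricle, and Nr1d1 went against it at -0.474 and -0.419. The part of blood content in those 2 genes was not tested. In bulk tissue, more cells of a kind and more RNA per cell cannot be told apart.

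The largest cluster joined genes of lipid and energy metabolism with others. Its 10 members included Echs1, the enoyl-CoA hydratase of mitochondrial beta-oxidation, Dhrs4, a peroxisomal carbonyl reductase, Atp5f1c, a subunit of ATP synthase, Acss2, an acetyl-CoA synthetase, and Amacr, a racemase of branched-chain fatty acids. Lamtor1, a lysosomal anchor of nutrient signalling, and Tfb2m, a mitochondrial transcription factor, belonged to it too. So did Slc31a1 and the unnamed probes ILMN_1352654 and ILMN_2039266. On the list of fasting and PPAR-alpha genes, 11 probes passed the filter. Of these 0 were members, and their median was 0.0287, below the 0.0507 of all probes that passed. Echs1 correlated at 0.723 and Dhrs4 at 0.698 between the organs. High-salt control replicate 1 was low across the cluster, at a mean of -2.35 SD in the kidney and -2.54 SD in the left ventricle, and high-salt control replicate 6 was high, at 1.21 and 1.53 SD.

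Most of these correlations were smaller without the 3 rats that include it. Without them the median correlation of the 10 members was 0.391, with Echs1 at 0.717, Dhrs4 at 0.438, Acss2 at 0.240 and Amacr at 0.0490. With all rats kept, Echs1 correlated at 0.940 over the high-salt rats but at 0.1355 over the low-salt rats. Dhrs4 had 0.752 and 0.630 in the same order. Deviations of these members also went with brightness, at a median correlation of 0.538 in the kidney and -0.635 in the left ventricle. The brightness deviations of the 2 organs themselves correlated at -0.412, and high-salt control replicate 1 had the brightest ventricle of its group and the dimmest kidney. With brightness removed by regression, Echs1 correlated at 0.677, Dhrs4 at 0.552, Amacr at 0.305 and Acss2 at 0.234 between the organs.

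Icam2, RT1-DMa and Pelo led a cluster of 7. Icam2 is an adhesion molecule of endothelium, RT1-DMa a chain of the rat class II antigen-loading chaperone, and Pelo a factor that rescues stalled ribosomes. Icam2 correlated at 0.707, RT1-DMa at 0.677 and Pelo at 0.674 between the organs, and without the 3 rats at 0.650, 0.459 and 0.628. With median scaling the same 3 genes were at -0.336, 0.3595 and -0.307. Over the high-salt rats alone they correlated at 0.802, 0.854 and 0.726, and over the low-salt rats at 0.533, -0.084 and 0.646. RT1-DMa and Pelo correlated at 0.795 in the kidney and 0.892 in the left ventricle. The cluster's deviations correlated with kidney brightness at a median of 0.307 and with ventricular brightness at -0.738. With brightness removed by regression, Icam2 correlated at 0.551, RT1-DMa at 0.308 and Pelo at 0.236 between the organs. Galm, the mutarotase that feeds galactose into its catabolic pathway, ran opposite to RT1-DMa, at -0.619 in the kidney and -0.667 in the left ventricle, and itself correlated at 0.734 between the organs. No probe of the endothelial marker list was a member, and RT1-DMa was the only member among 14 antigen-presentation probes, whose median was 0.129.

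In some other clusters 1 rat lay far from the rest, in both organs or in the kidney alone. Low-salt control replicate 2 was low for the cluster of Tecr, Actb and Aldoa, at a mean of -3.62 SD in the kidney and -2.39 SD in the left ventricle, and for the cluster of Aldh9a1, Pgm1 and ILMN_1352118, at -3.54 and -2.26 SD. It was high for the cluster of Mfn2, Plec and Slc6a6, at 2.75 SD in the kidney and 1.5 SD in the left ventricle, and low for that of Tmem140, Dynlt1 and Praf2, at -3.26 and -1.24 SD. In the ventricle other rats lay farther out for both of these. High-salt antibody replicate 6 was at -1.78 SD for the Mfn2 cluster, and high-salt control replicate 1 at -1.74 SD for the Tmem140 cluster. The correlation of Tecr without the 3 rats was -0.0993, of Aldoa -0.345, of Pgm1 -0.0973 and of Capns1 -0.357. Actb, whose kidney level was 12.27 in that rat and 13.78 to 14.43 in the rats of other groups, had a correlation of 0.207 without the 3 rats. Of 2 further Actb probes that passed the filter 1 correlated at 0.483 and 1 at 0.169, and a further Aldoa probe at 0.237. Aldoa, the glycolytic aldolase, and Ndrg1, a gene induced by low oxygen, were the 2 members on the hypoxia list. Ndrg1 correlated at 0.5996 between the organs, at 0.209 without the 3 rats and at 0.442 with brightness removed. Over the 9 hypoxia probes that passed the filter the median was 0.237, and 7 lay above 0.2, where 25.3% of all probes that passed it did. Without the 3 rats these 9 probes spanned -0.345 to 0.416. The count uses the correlation that chose the members and is a description.

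High-salt control replicate 1 lay far out for ILMN_1370359, P4ha1 and ILMN_1354948, at 3.74 SD in the kidney and 2.56 SD in the left ventricle. ILMN_1370359 ranked among the first 12 members with 0.665 and had -0.189 without the 3 rats, while P4ha1, a collagen prolyl hydroxylase, had 0.720. High-salt antibody replicate 6 was high for Gdi2, ILMN_1366169, Tnnc1 and Mettl23, at 1.97 SD in the kidney and 2.60 SD in the left ventricle. It was also high for ILMN_1366120, Tmpo and Recql, at 1.02 and 2.41 SD. For this Tmpo cluster low-salt control replicate 2 lay farther out in the kidney, at 2.81 SD, but at 0.62 SD in the ventricle. High-salt antibody replicate 3 was low for it, at -1.19 and -1.996 SD. Several rats lay far out for Luzp1, ILMN_1376480 and Pacsin2. High-salt control replicate 2 was low, at -1.49 and -2.35 SD, and so was replicate 5 of that group, at -1.84 and -1.66 SD. High-salt control replicate 1 was high, at 2.69 SD in the kidney and 1.26 SD in the ventricle. The rat with the largest share of the cross-product behind the correlation was high-salt control replicate 1 for 30 of the 100 members and low-salt control replicate 2 for 24. In 28 members 1 rat supplied more than 50% of it, and each of these rats did so in 12. Without the 3 rats 78 members were above 0.3, 38 were at or above their own value over 24 rats, and 7 were below 0. Coq3, a methyltransferase of ubiquinone synthesis, was higher at 0.832 than with all 24 rats, where it had 0.597.

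**Figure D4:**
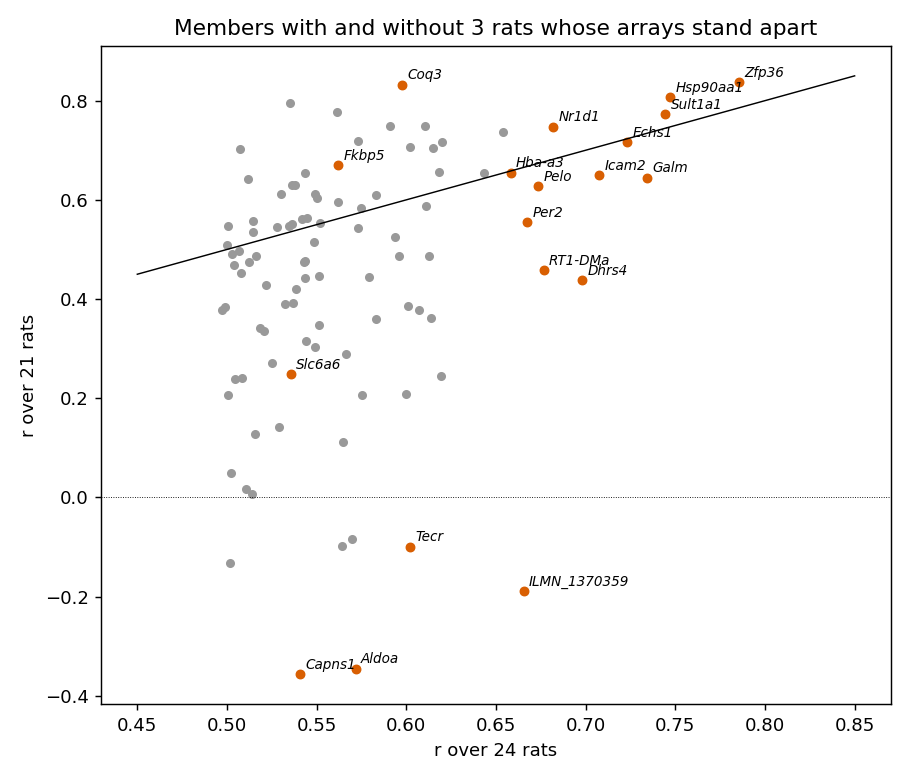
Each point is 1 member, with its correlation over all 24 rats on the horizontal axis and over the 21 rats left without the 3 whose arrays stood apart on the vertical axis, and a line where both are equal. Zfp36, Hsp90aa1, Sult1a1, Nr1d1 and Coq3 lie above the line, and Aldoa, Capns1, Tecr and ILMN_1370359 lie below 0.

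Tnnc1, cardiac troponin C, was the only member on the cardiomyocyte list. Its ventricular level spanned 12.13 to 13.01 in high-salt antibody rats, 12.26 to 12.75 in high-salt controls, 13.08 to 13.87 in low-salt antibody rats and 12.997 to 14.26 in low-salt controls. Its kidney level was far lower, at 8.38 to 9.64, 7.75 to 8.97, 8.15 to 9.12 and 8.23 to 9.58 in the same order of groups. Of the 16 cardiomyocyte probes, 2 were detected in every kidney and 7 in none, and their summed intensity in the kidney spanned 988 to 1669 over all groups, against 62195 to 122408 in the ventricle. Slow skeletal muscle also expresses Tnnc1, and no skeletal muscle marker passed the filter.

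The rule subtracts the group means, but its detection filter depends on level, and so the tests of diet and antibody that follow are not wholly independent of it in the ventricle. Of the members, 17 were not detected on every high-salt ventricle, 3 not on every low-salt ventricle and 2 not on every kidney, and none was detected on 0 arrays of a group. In the left ventricle of control-IgG rats 60 of the 100 members changed with high salt, 41 upward and 19 downward, at a limma adjusted p below 0.05. Over all 8354 probes tested 59.7% changed, so the members' share was that of the array. Their median log2 difference was 0.21, beside 0.10 over the other 4283 probes that passed the detection filter and -0.13 over all probes. Among the members with the smallest p, Oas1d, an interferon-inducible oligoadenylate synthetase-like gene, rose by 1.92 ± 0.19 (SE, n = 6 each, adjusted p = 4.24e-08), Amacr by 1.90 and Psmc4, a proteasome ATPase, by 1.21. RT1-DMa rose by 2.31 ± 0.26, while of the 19 antigen-presentation probes tested in the ventricle 6 rose and 9 fell, with a median of -0.41. RT1-DMa was detected on 5 of 6 low-salt antibody ventricles and on all others. Mapkapk2, a kinase downstream of p38, fell by 1.41, Mrpl13, a mitochondrial ribosomal protein, fell by 1.16, and ILMN_1351960 fell by 1.80.

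Directions in the heart depended on the scaling. With median scaling, which shifts each array to 1 common median in place of quantile normalisation, 83 members changed, 3 upward and 80 downward, the median of all probes moved to -0.51, and Psmc4 turned to -0.44, whereas Oas1d stayed positive at 0.29 and RT1-DMa at 0.45. With array brightness as a covariate 0 members changed under limma, and 2 probes did over the whole array. RT1-DMa spanned 7.27 to 8.66 in high-salt antibody ventricles and 6.58 to 8.41 in high-salt control ventricles, against 5.42 to 6.37 in low-salt antibody ventricles and 5.38 to 5.70 in low-salt control ventricles, so the diets did not overlap. The summed intensity of the macrophage marker probes, 729 to 3029 over high-salt ventricles and 901 to 1778 over low-salt ventricles, did overlap. Of the 7 macrophage probes tested there, 3 rose and 1 fell with salt.

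Among the genes that varied together, the ventricular effect of salt was uneven. Dusp1 fell by 1.83 ± 0.25 (adjusted p = 1.3e-06) and Ccn1 by 1.42 ± 0.38 (adjusted p = 0.00249), while Zfp36 differed by -0.23 ± 0.34 and did not pass. Per2 fell by 0.85 ± 0.25 (adjusted p = 0.00522), and Fkbp5 rose by 0.77 ± 0.20 (adjusted p = 0.00257). With median scaling, under which most probes moved downward, Dusp1, Ccn1 and Per2 were at -3.17, -1.25 and -1.80, and Fkbp5 turned to -0.73. A fall that stays under that scaling is thus not particular to these genes. With brightness as a covariate Per2 was at 0.42 and none of the 4 passed. Ccn1 was detected on 4 of 6 high-salt antibody and 3 of 6 high-salt control ventricles, and on all low-salt ones. Tnnc1 fell by 0.94 ± 0.19, and of the 14 cardiomyocyte probes tested 2 rose and 10 fell, with a median of -0.995. Over the whole lists, of 15 immediate-early probes tested 1 rose and 6 fell in the ventricle, of 11 clock probes 2 rose and 6 fell, of 10 heat-shock probes 1 rose and 3 fell, and of 13 hypoxia probes 2 rose and 8 fell, where 59.7% of all probes changed. With median scaling, which moved most probes of the array downward, none of these 4 lists held a probe that rose, and 13, 10, 10 and 12 fell, in the order given.

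In the kidney high salt changed 23 members of control-IgG rats, 12 upward and 11 downward, where 14% of 11534 probes changed and 15.6% of the other 4283 that passed the detection filter did. Hmgb2, a chromatin protein, rose by 0.86 ± 0.14 (adjusted p = 0.00114), Sparc, a collagen-binding matrix protein, by 0.93 ± 0.21 (adjusted p = 0.00648), and Dynlt1, a dynein light chain, by 0.86 ± 0.17. Slc6a6, the taurine transporter, fell by 0.93 ± 0.16 (adjusted p = 0.0017), and Galm fell by 0.46 ± 0.10. Hmgb2 spanned 9.28 to 9.97 in high-salt control kidneys, against 8.28 to 9.04 in low-salt control kidneys, and Slc6a6 spanned 8.42 to 9.24 in high-salt control kidneys, against 9.54 to 10.50 in low-salt control kidneys. Under control IgG neither gene overlapped between the diets, but under antibody both did. There Hmgb2 spanned 8.85 to 9.52 on high salt and 8.95 to 9.19 on low salt. Slc6a6 spanned 8.55 to 9.34 and 9.17 to 9.76. Neither gene passed the limma interaction of antibody and diet in the kidney, where 1.11% of all probes did. A difference between the antibody and control rats in the salt effect is therefore not shown for them. How many of all probes separate by diet in this way was not counted. In the ventricle Hmgb2 was detected on 2 of 6 high-salt antibody and 4 of 6 high-salt control arrays.

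Within the cluster of Echs1 and Dhrs4, 7 of 10 members fell in the kidney with salt, among them Dhrs4 by 0.54 ± 0.13, Amacr by 0.56 ± 0.14 and Echs1 by 0.36 ± 0.10, where 14% of all probes changed. All 10 rose in the ventricle, where 59.7% of all probes changed. With median scaling 0 rose and 4 fell in the ventricle and 0 changed in the kidney, and with brightness as a covariate 0 changed in the ventricle. These members were grouped on the same arrays, so their shared direction is a description. Dhrs4 spanned 10.95 to 11.98 in high-salt control kidneys, against 11.66 to 12.32 in low-salt control kidneys, and 10.66 to 11.84 in high-salt control ventricles, against 9.82 to 10.24 in low-salt control ventricles. The kidneys overlapped and the ventricles did not. Without the 3 rats the kidney value of Dhrs4 was -0.51 and passed, and with median scaling it was -0.47 and did not. In the kidney median scaling left 6 members changed and a fit of the 2 groups alone left 5. Zfp36, Nr1d1, Dnajb1, Dnaja1, Hspa5, Hba-a3 and Hba-a1 passed in no contrast of either organ taken alone.

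Of the 18 members called in both organs, 8 went the same way (44.4%) and 10 opposite ways. Of the other 4283 probes that passed the filter, 384 (8.97%) were called in both, and 166 of these (43.2%) went the same way. Over all 100 members 48 had the same sign in the organs, which is 48%, beside 48.8% of the other probes that passed the filter. Both shares of agreement were close to those of the other probes. The 7 that rose in both organs were Rhob, Dynlt1, Sparc, Hsd3b7, Praf2, Tmed2 and RT1-DMa, and Galm fell in both. In the ventricle Sparc rose by 0.69 ± 0.17 and with median scaling was at -0.90.

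**Figure D5:**
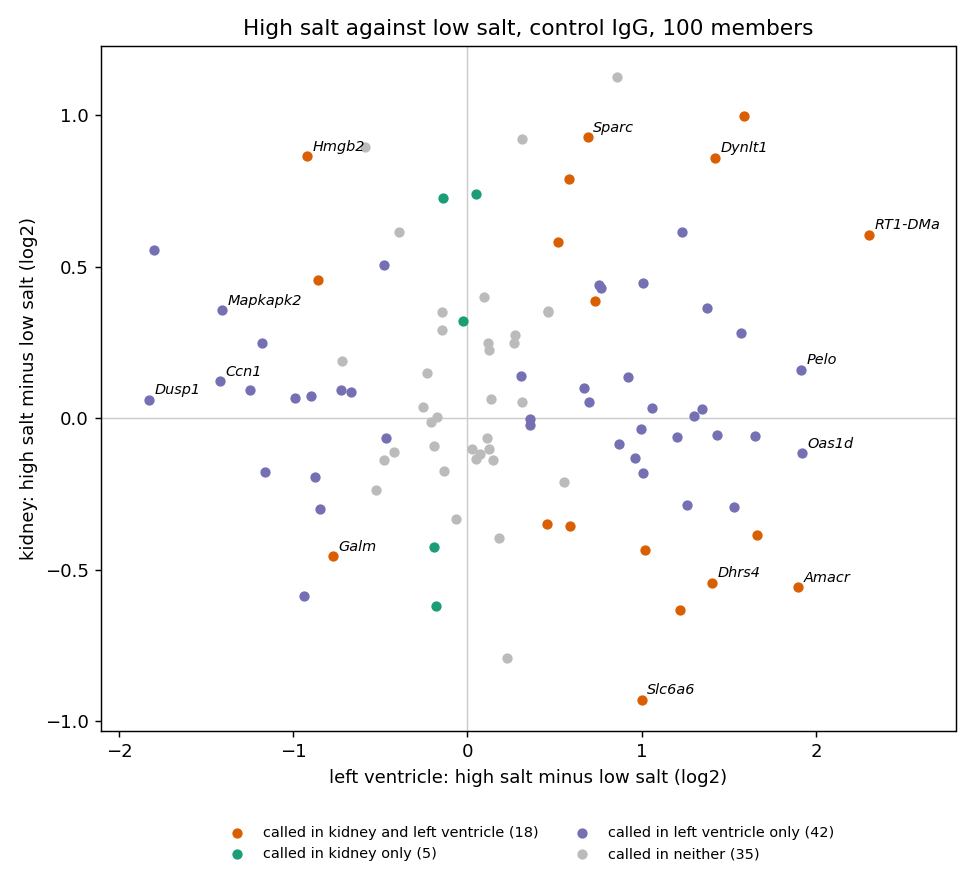
Each point is 1 of 100 members, with the log2 difference between high salt and low salt under control IgG in the left ventricle on the horizontal axis and in the kidney on the vertical axis, coloured by where limma called it. The 18 members called in both organs lie in all 4 corners of the plot, with Sparc, Dynlt1 and RT1-DMa at the upper right and Amacr, Dhrs4 and Slc6a6 at the lower right.

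Antibody effects on high salt were fewer. In the ventricle 17 members changed, 12 upward and 5 downward, where 18.8% of all probes changed. This count was 9 without the 3 rats, 9 to 25 without single rats, 1 with brightness as a covariate, 0 when the fit held the 2 groups alone and 59, all lower, with median scaling. Oas1d rose by 0.78 ± 0.19 (adjusted p = 0.00824) and with median scaling was at -0.02, and Galm fell by 1.11 ± 0.24 (adjusted p = 0.00301) and with median scaling was at -0.32. Pum2, an RNA-binding repressor of translation, rose by 0.42 ± 0.12, Pacsin2, a membrane-shaping protein, rose by 0.86, Gdi2, which keeps Rab proteins inactive, fell by 0.42, and Tmpo, a protein of the inner nuclear membrane, fell by 1.33. With median scaling Pum2 was at -0.42 and Pacsin2 at -0.10, and Tmpo, at -0.45, did not pass. Tmpo was detected on 3 of 6 high-salt antibody ventricles and on all others, and at -1.10 did not pass without the 3 rats. Of the 7 macrophage probes 0 rose and 6 fell in this contrast, with a median of -0.90, and 0 changed when the fit held the 2 groups alone. In the kidney 3 members changed, where 2.72% of all probes changed. Echs1 rose by 0.43 ± 0.10 (adjusted p = 0.0195), Acss2 rose by 0.78 ± 0.20 (adjusted p = 0.0362), and Sparc fell by 0.89 ± 0.21 (adjusted p = 0.0208). The kidney level of Sparc spanned 10.01 to 11.64 in high-salt antibody rats, with a median of 10.57, against 11.37 to 11.95 in high-salt controls, with a median of 11.55. Only the highest antibody rat, replicate 2, reached into the control range. In low-salt kidneys Sparc spanned 10.36 to 11.39 with antibody and 10.30 to 10.90 with control IgG.

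In the same kidneys the salt differences under control IgG were 0.93 for Sparc, -0.36 for Echs1 and -0.63 for Acss2, and both comparisons share the 6 high-salt controls, so these values are not independent of the antibody differences. Each of the 3 antibody calls was lost when the fit held the 2 groups alone, at adjusted p of 0.077, 0.0868 and 0.0802, and with median scaling, and each held without the 3 rats. Leaving out single rats ended the call of Sparc without high-salt antibody replicate 1, 3 or 5, that of Echs1 without high-salt antibody replicate 1 or 5 or high-salt control replicate 2, and that of Acss2 without any 1 of 8 rats. Sparc was the only member of 13 fibrosis-list probes that passed the detection filter. Over the 21 probes of that list tested in the kidney 11 rose and 1 fell with salt, where 14% of all probes changed, and 0 rose and 6 fell with antibody on high salt, where 2.72% did. Of these 6 falls, the fit of the 2 groups alone left 0 and median scaling 1.

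On low salt the antibody changed 0 members in either organ by limma, where 0% of all probes changed. At an unadjusted p below 0.05 there were 19 members in the kidney, where 16.3% of all probes passed, and 3 in the ventricle, where 0.862% did. Under antibody, high salt changed 71 members in the ventricle, 42 upward and 29 downward, where 71.5% of all probes changed, and 1 in the kidney, where 1.84% did. Hsp90aa1 fell by 1.30 ± 0.32 in the ventricle (adjusted p = 0.000837), Pelo rose by 2.53 ± 0.22, ILMN_2039266 rose by 2.07 ± 0.19, Slc25a3, the mitochondrial phosphate carrier, fell by 1.42 ± 0.16, and Galm fell by 2.07 ± 0.24. Hsp90aa1 was detected on 2 of 6 and Galm on 1 of 6 high-salt antibody ventricles, and both on 5 of 6 high-salt control ventricles and on all low-salt ventricles. Their ventricular differences therefore rest on signals that were largely not above background in the high-salt antibody rats. With median scaling Hsp90aa1 and Galm kept their direction, at -1.10 and -1.30, Pelo was at 0.08, ILMN_2039266 at -0.33, and 94 of 95 changed members were lower. With brightness as a covariate Hsp90aa1 was at 0.15 and 0 members changed in the ventricle. In the kidney Lamtor1 fell by 0.64 ± 0.10 (adjusted p = 0.0051).

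Galm was the only member whose antibody effect differed with diet at the threshold. In the ventricle its interaction was -1.29 ± 0.34 (limma adjusted p = 0.0455), where 1.8% of all probes passed. Galm spanned 4.99 to 6.44 in high-salt antibody ventricles and 6.19 to 7.44 in high-salt control ventricles, against 7.51 to 7.88 in low-salt antibody ventricles and 7.14 to 7.74 in low-salt control ventricles. The antibody and control rats overlapped on each diet. In the kidney, where Galm spanned 12.75 to 13.19, 12.51 to 13.13, 13.02 to 13.24 and 13.15 to 13.50 in the same order, 0 members passed by limma, where 1.11% of all probes did, and 22 members had an unadjusted p below 0.05, where 19.4% of all probes did. The high-salt antibody ventricles, of which 1 of 6 detected Galm, enter both this value and the antibody difference. Without the 3 rats the ventricular interaction was -1.04 and did not pass, and leaving out any 1 of 18 of the 24 rats also ended the call.

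The response to salt differed between the organs for 52 of the members. Taking the kidney minus ventricle difference of each rat, these 52 responded differently under control IgG, 20 upward and 32 downward, where 40.9% of 12009 probes did and 46.4% of the other probes that passed the detection filter did. Dhrs4 was at -1.73 ± 0.14 (adjusted p = 2.02e-08), Dusp1 at 1.56 ± 0.31 (adjusted p = 0.000301), Ccn1 at 1.65 ± 0.50, Hsp90aa1 at 0.95 ± 0.37 and Nr1d1 at -0.94 ± 0.32 (adjusted p = 0.0216). With median scaling Nr1d1 turned to 0.42 and Dhrs4 was at -0.20, neither passing, while Dusp1 was at 3.28. For the antibody on high salt 12 members differed between the organs, 4 upward and 8 downward, where 9.16% of all probes did, with Galm at 1.84 ± 0.31 and Hsp90aa1 at 1.21 ± 0.37. That count was 0 with median scaling, 6 with brightness as a covariate, 20 with quantile values without background correction and 7 to 16 without single rats. For the antibody on low salt it was 0 by limma, where 0% of all probes passed, with 8 members at an unadjusted p below 0.05, where 2.91% of all probes passed that level. For the interaction it was 1, Galm at 2.16 ± 0.44 (adjusted p = 0.0292), where 0.45% of all probes passed. Median scaling, the brightness covariate, the replicate block and leaving out the 3 rats each ended it. Leaving out any 1 of 7 rats also ended that call, and leaving out any 1 of 11 rats ended the salt call of Hsp90aa1. The antibody call of Hsp90aa1 was lost without any 1 of 8 rats, and the salt call of Nr1d1 without replicate 2 of the high-salt or of the low-salt controls.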

How the data were processed

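Kidney and left ventricular RNA of 24 rats was hybridised to 48 Illumina bead arrays with 1 colour. The deposited table gives probe intensity on a linear scale, not normalised between arrays, with a detection p-value for each probe and array, per the file headers, and the submitters' processing notes name GenomeStudio 2011.1. A further deposited table holds a score for each probe that equals, to rounding, log10 intensity standardised within the array, and it served as an alternative. How chips were assigned to samples is not given in the sources used here. Array number limits the precision. Nothing in the labels ties equal replicate numbers of different groups to a litter or day.

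Deviations and correlations use log2 of the deposited intensity, quantile-normalised within each tissue, and detection at a p below 0.05 on at least 18 of 24 arrays of each tissue. Levels and tests use neqc log2 intensity (offset 16), normalised per tissue, or over all 48 arrays for kidney minus left ventricle. Models of 4 group means were fitted with limma 3.58.1 in R 4.3.3 (lmFit and eBayes) to all probes detected on at least 6 of 24 arrays of a tissue, and p-values were adjusted by Benjamini-Hochberg over all of them. Any SE is limma's, with 6 rats per group, and adjusted p below 0.05 counts as changed. The scripts were tested on simulated data. The alternatives were quantile values without background correction, median scaling, the deposited scores, no filter on dim probes, array brightness (the log2 95th percentile of signal) as a covariate, the replicate number as a block, only the 2 groups compared and each rat left out. Leaving out the 3 rats whose arrays stood apart, and the counts over lists and clusters under the alternatives, were added after seeing the data. Deviations of same-numbered rats correlated over 0.1 in 15 of 72 pairs of groups and tissues (-0.41 to 0.48), so the numbers were not taken as pairs.

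The members and the gene lists were chosen with earlier results of these data known. The rule names the 12 members with the highest correlation, the 3 highest of every cluster, the 3 with the smallest adjusted p in each direction of a contrast, every member on a list, the probes beside rank 100 and up to 5 other genes of a list that holds at least 3 members. Per1, Cry1, Hbb and the other cluster members, the 18 members called in both organs and Coq3 were named after their values were seen where this rule does not reach them. Gene names come from the platform annotation supplied with the series. All columns of the deposited tables were mapped to samples by their titles.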

Additional observations from a re-analysis of the deposited data

Results flagged for a closer look

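In 27 of 184 groups of 6 rats the highest or the lowest value lay far from the other 5. Chance gives about 1 in 20 for independent groups of unselected values. Most of these groups are levels of members chosen for deviations of the same rats, and they share arrays. The count is therefore a description and not an excess over chance. In the kidney of low-salt control replicate 2 Per2 (13.04) and Slc6a6 (10.50) were high and Dnajb1 (11.91), Hmgb2 (8.28) and Actb (12.27) low. High-salt control replicate 1 had high Dusp1 in the kidney (13.20), where its array detected 10514 probes, the fewest of its group, with a log2 95th percentile of signal of 10.96, while its ventricle detected 7033, the most of its group. The kidney of low-salt antibody replicate 1 detected 10925 probes, the most of its group, and was low for Fkbp5 (10.62), and its ventricle was high for Nr1d1 (8.06).

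Low-salt control replicate 3 was high for Fkbp5 in both organs, at 11.62 in the kidney and 9.47 in the ventricle, and for Sult1a1 in the kidney (11.09). Low-salt control replicate 1 was high for Hba-a3 in the kidney (11.02) and low for Sult1a1 (6.33) and Echs1 (11.52) in the ventricle. High-salt antibody replicate 5 was high for Sult1a1 (11.45) and low for Icam2 (9.24) in the kidney. Among single values, Nr1d1 was low in the ventricle of high-salt control replicate 5 (7.17), Ccn1 low in the kidney of high-salt control replicate 6 (9.39), Dusp1 high in the kidney of low-salt antibody replicate 2 (12.83) and Hmgb2 high in that of replicate 6 of the same group (9.19). In the ventricle Hba-a3 was low in low-salt antibody replicate 5 (7.38), Hba-a1 in high-salt antibody replicate 1 (12.52) and Slc6a6 in high-salt antibody replicate 6 (7.72). All values here are log2 intensity unless named otherwise.

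Effects also differed between groups by the limma test of the difference itself. Between the organs, kidney minus ventricle, the response to salt under control IgG differed for 52 members. It did so for 40.9% of all probes and 46.4% of the other probes that passed the detection filter. The log2 differences were 0.95 for Hsp90aa1, -1.73 for Dhrs4, -0.94 for Nr1d1, 1.65 for Ccn1 and 1.56 for Dusp1. The response to the antibody on high salt differed for 12 members, with 1.21 for Hsp90aa1 and 1.84 for Galm. There 9.16% of all probes differed, and 10.6% of the other probes that passed the detection filter. The antibody effect differed between the diets for 1 member in the ventricle, Galm at -1.29, where 1.8% of all probes passed. In kidney minus ventricle it did so for 1, Galm at 2.16, where 0.45% passed. Of 6 high-salt antibody ventricles, Hsp90aa1 was detected on 2 and Galm on 1. Leaving out any 1 of 18 rats ended the first Galm interaction and any 1 of 7 the second. The salt and antibody calls of Hsp90aa1 were lost without any 1 of 11 and of 8 rats.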

How the results depend on the processing

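Membership itself depended on the scaling and on single rats. Of the 100 members, median scaling returned 17 among its own top 100, the authors' scores 46, Spearman's rho 58, removal of brightness 51 and leaving out the 3 rats whose arrays stood apart 35. Background-corrected values returned 93, detection on all arrays 79, and leaving out single rats 61 to 95, with the lowest without high-salt control replicate 1. Counts of members called moved as follows. With brightness as a covariate they were 0 for salt in the ventricle under control IgG and 0 under antibody, 1 for the antibody on high salt and 0 for the interaction there, and in the kidney 5 for the antibody on high salt, 8 for salt under antibody and 2 for the interaction. The high-salt and low-salt ventricles did not overlap in brightness, so diet and this covariate cannot be told apart there. For kidney minus ventricle brightness left 6 for the antibody on high salt and 0 for the interaction. With median scaling the ventricle had 59 for the antibody on high salt and 0 for the interaction, the kidney 6 for salt under control IgG, 0 for the antibody on high salt and 10 for salt under antibody, and kidney minus ventricle 0 for the antibody on high salt and 0 for the interaction. The authors' scores gave 36 for the antibody on high salt and 5 for the interaction in the ventricle and 8 for salt under antibody in the kidney. Quantile values without background correction gave 0 for the ventricular interaction, 2 for salt under antibody in the kidney, and 20 and 3 for the antibody on high salt and the interaction in kidney minus ventricle. No filter gave 11 and 0 for the antibody on high salt and the interaction in the ventricle. Only the 2 groups compared gave 0 for the antibody on high salt in the ventricle, and in the kidney 5 for salt under control IgG, 0 for the antibody on high salt and 6 for salt under antibody. Without the 3 rats the ventricle had 9 for the antibody on high salt and 0 for the interaction, the kidney 13, 5 and 8 for the antibody on high salt, salt under antibody and the interaction, and kidney minus ventricle 0 for the interaction.

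The replicate block gave 0 for the interaction in the ventricle and in kidney minus ventricle and 2 for salt under antibody in the kidney. The block also ended 5 of the 44 single-gene calls, those of Hsp90aa1 in both kidney minus ventricle contrasts, of Acss2 and of Galm in both interactions. Leaving out single rats gave 58 to 62 for salt under control IgG in the ventricle, 9 to 25 for the antibody on high salt, 0 to 0 for the antibody on low salt, 68 to 73 for salt under antibody and 0 to 5 for the interaction. The lowest of the second range came without high-salt antibody replicate 3, and 10 and 11 without high-salt antibody replicate 2 and high-salt control replicate 2. The kidney ranges were 17 to 26, 0 to 8, 0 to 4, 1 to 5 and 0 to 2 for the same contrasts, and those of kidney minus ventricle 48 to 55, 7 to 16 and 0 to 0 for the first 3 and 0 to 7 for the interaction. Of the single-gene values 10 turned sign under an alternative. With brightness as a covariate salt was at 0.42 for Per2 under control IgG and at 0.15 for Hsp90aa1 under antibody in the ventricle. With median scaling salt in the ventricle was at -0.73 for Fkbp5, -0.90 for Sparc and -0.44 for Psmc4, the antibody on high salt at -0.018 for Oas1d, -0.423 for Pum2 and -0.103 for Pacsin2, salt under antibody at -0.327 for ILMN_2039266, and salt in kidney minus ventricle at 0.42 for Nr1d1. The cause of these changes was not tested. Dim signal limits the high-salt ventricles, where the fewest probes were detected.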
